A study of Mus musculus with 8 samples.

Results

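Amino acids cross membranes through families of solute carriers, and the mouse members of 7 such families were followed in an alpha cell line after depletion of Klf4. The members were all rows of the count table whose symbol began with Slc1a, Slc3a, Slc6a, Slc7a, Slc36a, Slc38a or Slc43a and ended in a number. This gave 61 genes of 55536. Of these, 32 had a mean of at least 1 CPM (a gene's counts relative to the scaled size of its library) over the 8 libraries and are described below.

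The cells were alphaTC6, a mouse line of glucagon-producing pancreatic alpha cells, labelled as wild type in both groups. They received either a pool of siRNAs against Klf4 or a scramble siRNA by reverse transfection with Lipofectamine RNAiMax, and RNA was taken after 48 h. Each treatment had 4 libraries of poly(A) RNA. Batch 1 held scramble replicates 1 and 2 with Klf4 siRNA replicates 1, 2 and 4, and batch 2 held scramble replicates 3 and 4 with Klf4 siRNA replicate 3. The labels do not state what sets the batches apart. All libraries came from 1 cell line, so the p-values measure the spread between these transfected cultures only, and the protocol text mentions islets although each sample is labelled as the line. The design text calls the libraries biological replicates.

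Alpha cells release glucagon when circulating amino acids rise, and the liver answers glucagon by breaking amino acids down. Within this loop Slc7a2, a carrier of arginine and other cationic amino acids, and Slc38a5, a sodium-coupled carrier of glutamine and other neutral amino acids, are known for their part in alpha cell secretion and growth. Some carriers work alone. Others, such as Slc7a5, are light chains that reach the cell surface only when bound to a heavy chain such as Slc3a2. Not every member carries amino acids, since Slc6a8 carries creatine and Slc6a12 carries betaine and GABA.

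Totals ran from 45954151 to 64185987 counts per library. Klf4, the targeted gene, fell from 41.8 ± 5.67 CPM (SD, n = 4) in scramble libraries to 15.6 ± 4.26 CPM (SD, n = 4) in Klf4 siRNA libraries, or 39.8% of control in the fit. Its log2 fold change was -1.33 (SE 0.17, edgeR adjusted p = 0.0083), and its adjusted p was 0.052 without scramble replicate 1. The list of 8 alpha cell markers includes Slc7a2 and Slc38a5. For Klf4 siRNA, 4 of the 8 fell, among them Gcg at -0.18, and 1 rose, with a median log2 fold change of -0.073. Of all tested genes 11.7% passed (4.88% higher and 6.81% lower). The part of the other markers in the members' changes was not tested. Summed alpha cell marker RNA was 6115 to 6415 CPM in batch 1 and 13120 to 14421 CPM in batch 2. Most of that gap was Gcg, the glucagon gene, with a batch log2 difference of 2.80. Among 6 markers of other islet cells the sum was at most 0.40 CPM, and Ins1, Ins2 and Pdx1 were at 0 counts in all libraries. A list of 10 exocrine, duct, endothelial, stromal and immune markers summed to 1.47 to 2.04 CPM in batch 1 and 4.25 to 5.08 CPM in batch 2, with Prss2 and Amy2a5 at 0.

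Levels between genes were compared as RPKM, which is CPM per kilobase of union exon length. Slc38a5 had the highest level at 306 RPKM (275 to 333 over the 8 libraries). It was followed by Slc38a4 at 137 (117 to 165), Slc7a5 at 130 (124 to 136), Slc7a2 at 105 (96.0 to 113) and Slc3a2 at 94.0 (90.0 to 98.1). Slc38a5 and Slc38a4 did not overlap in any library. Slc38a4 and Slc7a5 overlapped, as did Slc7a2 and Slc3a2, so neither pair has an order beyond its spread. Next came Slc1a5 at 55.9 RPKM, Slc7a14 at 44.5 and Slc6a17 at 34.8, which overlapped Slc38a2 at 29.4. A run of genes from Slc38a1 at 20.9 to Slc36a4 at 12.5 followed, each overlapping its neighbour. The lowest of the 32 was Slc38a3 at 0.299 RPKM. Of the 32 members, 4 reached 100 RPKM, 20 reached 10 and 25 reached 1. The length used mattered for 8 members, whose RPKM was more than 1.5 times as high when the longest transcript replaced the union of exons. The first 6 ranks stayed, with Slc3a2 at 118 RPKM, while the next 4 became Slc6a17 at 56.7, Slc38a1 at 49.6, Slc7a14 at 49.2 and Slc38a2 at 42.5, and Slc38a3 was no longer the lowest.

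**Figure D1:**
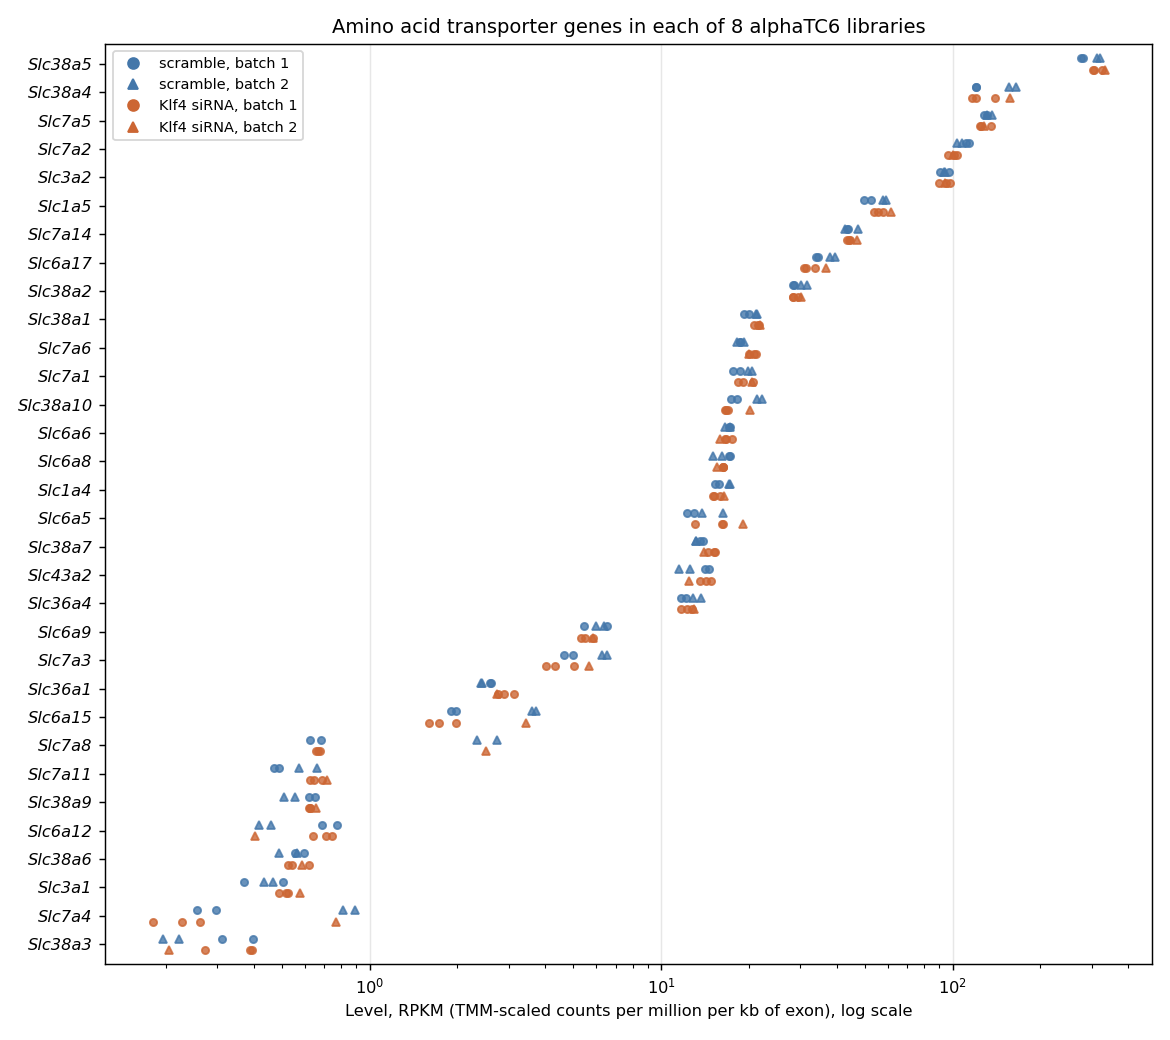
Level of the 32 members with a mean of at least 1 CPM, in RPKM on a log axis, with a point for each of the 8 libraries and members ordered by mean. Slc38a5 (275 to 333 RPKM) stands above all other members in each library.

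The other 29 members had means under 1 CPM. Of these, 2 were still tested, Slc6a13 at 0.80 CPM and Slc7a7 at 0.25 CPM, and neither passed the threshold for Klf4 siRNA. The remaining 27 were not tested and had at most 17 counts in any library. They included Slc1a1, Slc1a2, Slc1a3, Slc1a6 and Slc1a7, the glutamate transporters of the Slc1a family, and Slc6a2, Slc6a3 and Slc6a4, the noradrenaline, dopamine and serotonin transporters. Slc6a14, Slc6a21, Slc7a12 and Slc36a3 had 0 counts in all 8 libraries, which allows up to 0.047 to 0.065 CPM per library (3 counts of the total, counting error only).

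Klf4 siRNA was compared with scramble siRNA by edgeR's quasi-likelihood test with a batch term, with p-values adjusted over 16333 genes by the Benjamini-Hochberg method and a threshold of 0.05. Of the 32 members, 7 rose and 2 fell, or 28.1%. Over all tested genes the percentage was 11.7% (4.88% higher and 6.81% lower), and over tested genes with a mean of at least 1 CPM, as the members had, it was 14.8% (6.22% higher and 8.58% lower). Because calls are more frequent at higher levels, the share was also taken above 10 CPM, where 8 of 25 members and 18.4% of genes passed. In size, ignoring sign, the median log2 fold change was 0.091 over the 32 members and 0.064 over tested genes of at least 1 CPM. The signed median was 0.0081 for the members and 4.3e-05 for all tested genes. With library size alone as scaling, 4 members rose and 2 fell.

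The count of 9 rested on the batch term and on single libraries. Without a batch term, edgeR called 0 of the 32, with 5 at an unadjusted p under 0.05, and in batch 1 alone it called 5, Slc7a2, Slc38a5, Slc38a1, Slc7a6 and Slc7a11. With Klf4 siRNA replicate 4 placed in batch 2 it called 6, of which Slc7a2, Slc7a6, Slc38a7 and Slc36a1 were among the 9. With a term for the replicate number (a replicate block) in place of batch it called 6, of which Slc7a2, Slc7a6 and Slc38a7 were among the 9. Leaving out scramble replicate 1 left 1 call, Slc7a11. Leaving out scramble replicate 2 left 3, and leaving out Klf4 siRNA replicate 3 left 5. DESeq2 with the batch term called 11 and limma-voom called 10.

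Taken over all 8 libraries, the treatments were separate without overlap for 3 members, Slc7a6, Slc38a7 and Slc36a1, or 9.38% of 32, against 10.5% of all tested genes and 12.7% of those of at least 1 CPM. Within batches more members separated. For 11 members, 8 higher and 3 lower, the Klf4 siRNA libraries lay wholly to the same side of the scramble libraries in batch 1 and again in batch 2, or 34.4% of 32. The share was 24.4% of all tested genes (11.4% higher and 13% lower) and 29% of those of at least 1 CPM (13.7% and 15.3%), so that of the members lay near the background. These were the 9 called members with Slc6a5 and Slc6a17. In bulk RNA, fewer cells of a type and less RNA per cell cannot be told apart.

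**Figure D2:**
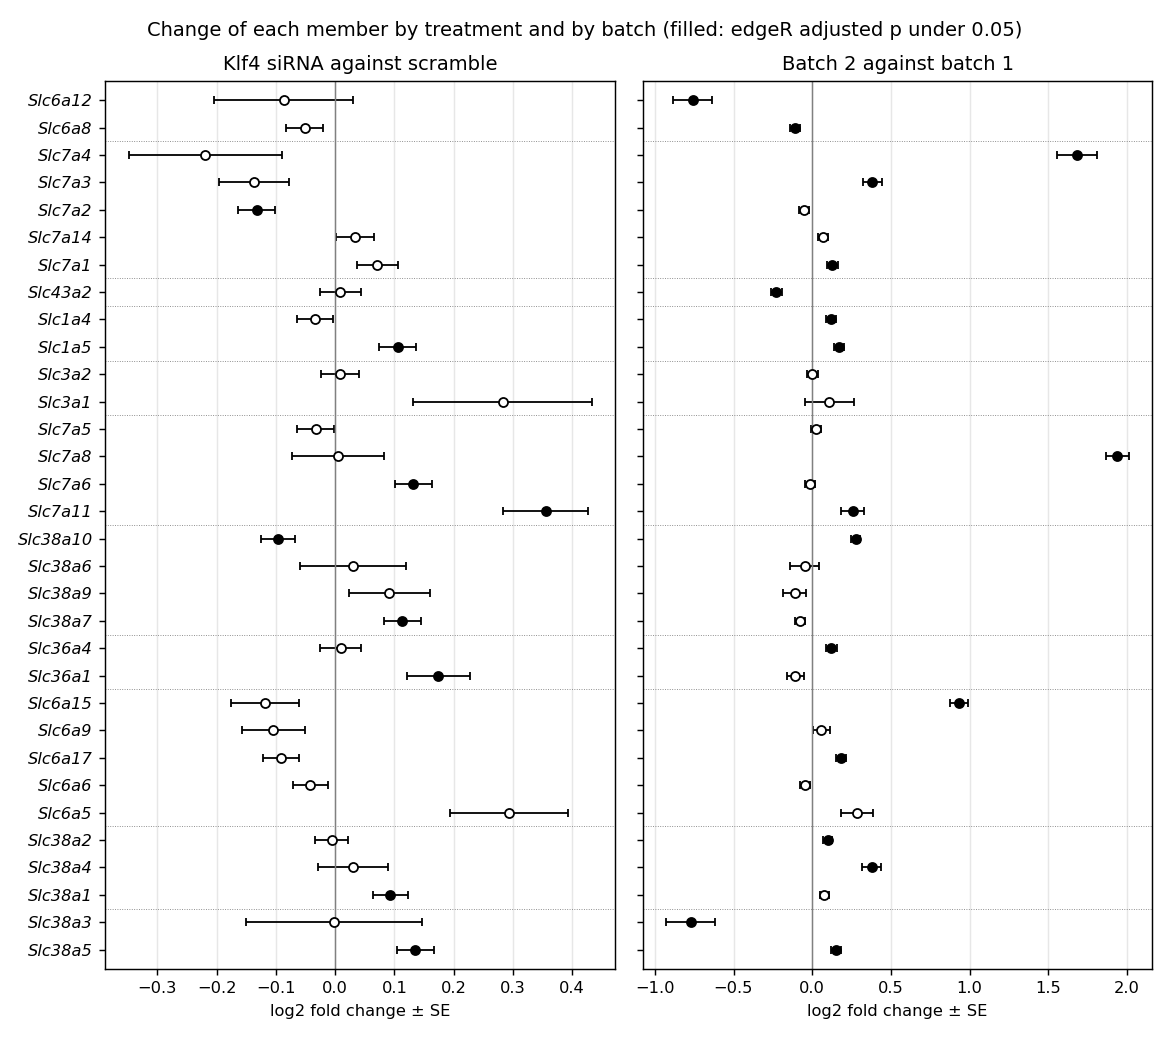
Log2 fold change with its standard error for each of the 32 members, Klf4 siRNA against scramble on the left and batch 2 against batch 1 on the right, grouped by role with dotted lines between groups. Filled points passed an adjusted p of 0.05: 9 members on the left and 18 on the right.

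Among the cationic amino acid transporters of the Slc7a family, 1 of 5 fell and none rose. Slc7a2 (ENSMUSG00000031596, chromosome 8, 40862396 to 40922308, plus strand, GRCm38) was at 1014, 1036, 981 and 948 CPM in scramble replicates 1 to 4. It was at 923, 949, 913 and 877 CPM in Klf4 siRNA replicates 1 to 4. All 3 siRNA libraries of batch 1 were below both scramble libraries of that batch, and the siRNA library of batch 2 was below both of its own, while over all 8 libraries the groups just overlapped, at 948 and 949 CPM. The log2 fold change was -0.13 (SE 0.031, edgeR adjusted p = 0.0080), or -0.16 within batch 1 and -0.08 within batch 2. Leaving out scramble replicate 1 gave an adjusted p of 0.054, and leaving out scramble replicate 2 gave 0.090. Exons of Slc7a2 overlap an annotation on the opposite strand, Gm26584, and reads of the pair cannot be told apart if strand was not used in counting.

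The remaining cationic members did not pass the threshold. Slc7a1, the widely expressed arginine and lysine carrier, had a log2 fold change of 0.07 (adjusted p = 0.229), and Slc7a14, an abundant lysosomal member at 44.5 RPKM, had 0.03 (adjusted p = 0.592). Slc7a3 had -0.14 (adjusted p = 0.163), which became 0.0077 without Klf4 siRNA replicate 4 and 0.017 with that library placed in batch 2. The last, Slc7a4, is described with the batches.

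Of the system N carriers, which move glutamine, histidine and asparagine with sodium against protons, 1 of 2 rose. Slc38a5 (ENSMUSG00000031170, chromosome X, 8271133 to 8280179, plus strand) was at 616, 625, 698 and 716 CPM in scramble replicates 1 to 4 and at 678, 683, 745 and 730 CPM in Klf4 siRNA replicates 1 to 4. Both batches moved up with the siRNA, but batch 2 was itself higher, so both scramble libraries of batch 2 lay above 2 of the 3 siRNA libraries of batch 1. Its log2 fold change was 0.14 (SE 0.031, edgeR adjusted p = 0.0066), or 0.17 within batch 1 and 0.08 within batch 2. Between batches the log2 difference was 0.15 (adjusted p = 0.0011), about as large as the treatment effect. The treatment call was lost without scramble replicate 1 (adjusted p = 0.074) or scramble replicate 2 (0.053), with Klf4 siRNA replicate 4 placed in batch 2 (0.055) and with no batch term (0.498).

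Among the light chains of heteromeric exchangers, 2 of 4 reported members rose. Slc7a11, the cystine and glutamate exchanger that feeds glutathione synthesis, was at 6.57, 6.82, 9.16 and 7.98 CPM in scramble replicates 1 to 4 and at 9.58, 8.98, 9.97 and 8.71 CPM in Klf4 siRNA replicates 1 to 4. In batch 1 all siRNA libraries exceeded both scramble libraries, and in batch 2 the single siRNA library exceeded both. It had the largest log2 fold change of the 9 called members, 0.35 (SE 0.072, edgeR adjusted p = 0.0023), a rise of 27.9%. Within batches the change was 0.44 and 0.22. It was the only member called in each of the 8 fits that left out 1 library, with an adjusted p of at most 0.032. Its call was lost with Klf4 siRNA replicate 4 placed in batch 2 (adjusted p = 0.068), with no batch term (0.249) and with a replicate block (0.080).

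Slc7a6, a light chain that exchanges cationic for neutral amino acids, was at 85.1, 85.3, 87.6 and 83.1 CPM in scramble replicates 1 to 4. In Klf4 siRNA replicates 1 to 4 it was at 96.4, 95.3, 91.7 and 91.5 CPM. Every siRNA library was above every scramble library, and the SDs were 1.84 and 2.52 CPM. The log2 fold change was 0.13 (SE 0.031, edgeR adjusted p = 0.0073), at 0.15 and 0.10 within the batches, and the adjusted p was 0.059 without scramble replicate 1.

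Promoter letters are shown for the 2 called members at either end of the level range, Slc7a11 and Slc38a5, because amino acid carriers are known targets of the factor ATF4 and because Klf4 binds CACCC-type boxes. Windows of 250 bases before the start were taken from the RefSeq table (GRCm38.p6) and matched 22 of the 32 members and 6 of the 9 called ones. That of Slc38a5 is cut to the 120 bases before the RefSeq start, because the GENCODE gene begins further upstream. The stretch shown thus lies inside the annotated gene, after a first exon of other transcripts. Capitals mark TGATGNAA, the core of the amino acid response element, in Slc7a11 (chr3:50443615-50443863, minus strand, GRCm38) and CACCC, on its reverse strand, in Slc38a5 (chrX:8271261-8271380, plus strand).
Slc7a11: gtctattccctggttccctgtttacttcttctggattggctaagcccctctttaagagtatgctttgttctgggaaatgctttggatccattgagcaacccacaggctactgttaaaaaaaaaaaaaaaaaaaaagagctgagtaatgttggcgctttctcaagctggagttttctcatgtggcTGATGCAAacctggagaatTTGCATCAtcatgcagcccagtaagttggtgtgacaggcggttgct
Slc38a5: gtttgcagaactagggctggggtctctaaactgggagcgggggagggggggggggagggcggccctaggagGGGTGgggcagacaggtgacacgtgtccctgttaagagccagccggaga

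Slc7a11 held TGATGNAA on both strands, beginning 66 and 47 bases upstream of the start. Across all 32851 windows in the table, 3.45% held it on either strand, and among the 35 windows of the reported members only that of Slc7a11 did. CACCC is a common word: 52% of all windows and 19 of the 35 (54.3%) held it, and so did 4 of the 7 windows of called members, 1 each of Slc38a5 and Slc38a10 and 2 of Slc7a6. These matches describe letters and no binding was measured.

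The remaining light chains and both heavy chains did not pass. Slc7a5, the large neutral amino acid exchanger that takes up leucine, was at 487, 473, 488 and 504 CPM in scramble replicates 1 to 4 and at 460, 465, 474 and 502 CPM in Klf4 siRNA replicates 1 to 4. The groups overlapped, at -0.03 on the log2 scale (edgeR adjusted p = 0.596). Slc3a2, its heavy chain, was at 342, 319, 330 and 333 CPM and at 335, 317, 332 and 346 CPM, with a log2 fold change of 0.01 (adjusted p = 0.928). Slc3a2, at 94.0 RPKM, stood below the 151.6 RPKM to which its 6 light chains in the list summed, most of it from Slc7a5. Slc3a1, the other heavy chain, had a log2 fold change of 0.28 (SE 0.15, adjusted p = 0.271) at about 1 CPM, and its exons overlap Prepl on the opposite strand.

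Of the Slc1a members, Slc1a5 rose and Slc1a4 did not pass. Slc1a5, a sodium-dependent exchanger of glutamine and other neutral amino acids on chromosome 7, was at 207, 219, 240 and 247 CPM in scramble replicates 1 to 4. It was at 223, 232, 256 and 241 CPM in Klf4 siRNA replicates 1 to 4. Within each batch the siRNA libraries were higher, and the batches differed by more than the treatments did. The treatment log2 fold change was 0.11 (SE 0.031, edgeR adjusted p = 0.029), against 0.17 (adjusted p = 0.00027) between batches. The treatment call was lost without scramble replicate 1, 2 or 3 (adjusted p = 0.238, 0.066 and 0.056) and without Klf4 siRNA replicate 2 or 3 (0.061 and 0.063). Slc1a4, a carrier of alanine, serine and cysteine, had a log2 fold change of -0.03 (adjusted p = 0.572).

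System A carriers take up small neutral amino acids such as alanine and glutamine together with sodium. Their 3 genes, Slc38a1, Slc38a2 and Slc38a4, lie on chromosome 15 between 96571418 and 97055956, and 1 of the 3 rose. Slc38a1 was at 331, 344, 367 and 364 CPM in scramble replicates 1 to 4 and at 359, 371, 375 and 375 CPM in Klf4 siRNA replicates 1 to 4. Its groups overlapped across batches and not within them. It differed by 0.093 on the log2 scale (SE 0.029, edgeR adjusted p = 0.044). The call was lost without scramble replicate 1 or 2 (adjusted p = 0.294 and 0.145) and without Klf4 siRNA replicate 1, 2 or 4 (0.054, 0.107 and 0.067).

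Neither neighbour passed for Klf4 siRNA. Slc38a2 had a log2 fold change of -0.01 (SE 0.028, adjusted p = 0.936). Slc38a4 was at 514, 512, 704 and 667 CPM in scramble replicates 1 to 4 and at 498, 511, 672 and 598 CPM in Klf4 siRNA replicates 1 to 4, with a treatment log2 fold change of 0.03 (adjusted p = 0.837). Klf4 siRNA replicate 4, of batch 1, lay above the other 4 libraries of batch 1 and below the 3 of batch 2.

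Of the other Slc38a members, Slc38a7 rose and Slc38a10 fell. Slc38a7, described as a lysosomal exporter of glutamine and asparagine (chromosome 8, 95835920 to 95853539), was at 57.7, 56.5, 54.6 and 54.5 CPM in scramble replicates 1 to 4 and at 63.6, 62.9, 58.2 and 60.2 CPM in Klf4 siRNA replicates 1 to 4. No siRNA library overlapped a scramble library. The log2 fold change was 0.11 (SE 0.031, edgeR adjusted p = 0.019), at 0.12 and 0.095 within the batches. It was lost without scramble replicate 1 or 2 (adjusted p = 0.069 and 0.128) and without Klf4 siRNA replicate 1 or 3 (0.051 and 0.071).

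Slc38a10 was at 117, 111, 136 and 143 CPM in scramble replicates 1 to 4 and at 107, 107, 129 and 109 CPM in Klf4 siRNA replicates 1 to 4. The siRNA libraries were below the scramble libraries in each batch, while batch 2 lay higher for both treatments. The treatment log2 fold change was -0.096 (SE 0.029, edgeR adjusted p = 0.034), smaller in size than the batch difference of 0.28 (adjusted p = 3.07e-07). The call was lost without scramble replicate 1 or 4 (adjusted p = 0.229 and 0.067) and without Klf4 siRNA replicate 1, 2 or 3 (0.075, 0.064 and 0.193). Its exons overlap Gm11769 on the opposite strand. Slc38a9, an arginine sensor of the lysosome, had a log2 fold change of 0.09 (adjusted p = 0.467) and Slc38a6 had 0.03 (adjusted p = 0.895).

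Of the proton-coupled carriers, Slc36a1 rose and Slc36a4 did not pass. Slc36a1, a lysosomal and plasma membrane carrier of glycine, alanine and proline (chromosome 11, 55204350 to 55236330), was at 14.7, 14.6, 13.5 and 13.6 CPM in scramble replicates 1 to 4. It was at 15.5, 17.7, 15.4 and 16.3 CPM in Klf4 siRNA replicates 1 to 4, with no overlap. The log2 fold change was 0.17 (SE 0.053, edgeR adjusted p = 0.038), at 0.17 and 0.18 within the batches. It was lost without scramble replicate 1, 2 or 3 (adjusted p = 0.120, 0.137 and 0.062) and without Klf4 siRNA replicate 2 or 3 (0.100 and 0.153). Slc36a4 had 0.01 (adjusted p = 0.917).

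**Figure D3:**
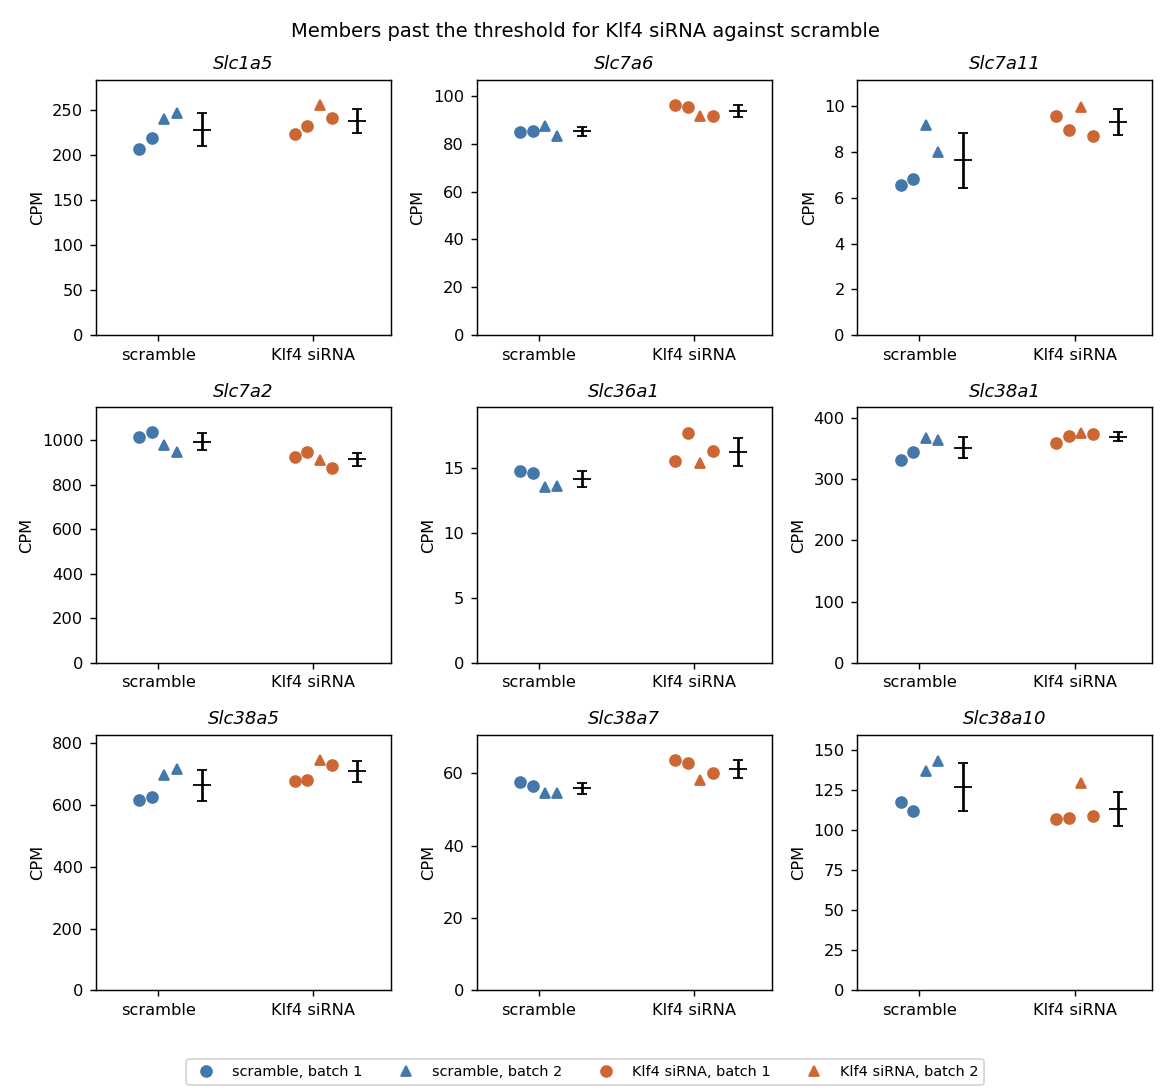
CPM in each library for the 9 members that passed the threshold for Klf4 siRNA against scramble, with bars at the mean and SD of 4 libraries per treatment, axes from 0 and batches marked. Slc7a6, Slc38a7 and Slc36a1 show no overlap between treatments, and the rest overlap only across batches.

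In edgeR's test with the batch term, none of the 7 reported Slc6a members and not the 1 reported Slc43a member, Slc43a2, passed for Klf4 siRNA, and 2, Slc6a5 and Slc6a17, were at an unadjusted p under 0.05. Both passed in DESeq2 with the batch term (adjusted p = 0.034 and 0.041), and Slc6a17 also passed in limma-voom (0.049), in edgeR at a mean of at least 5 CPM (0.047) and with Klf4 siRNA replicate 4 placed in batch 2 (0.024). Slc6a5, the glycine carrier found in glycinergic neurons, is given in full after its values were seen. It was at 93.5, 88.6, 117.5 and 99.2 CPM in scramble replicates 1 to 4. In Klf4 siRNA replicates 1 to 4 it was at 116.8, 94.1, 137.5 and 117.6 CPM. It was higher with the siRNA within each batch, and its log2 fold change of 0.29 was larger than those of 8 called members, but its SE was 0.10 (edgeR adjusted p = 0.150). Slc6a17, a vesicle carrier of neutral amino acids, had a log2 fold change of -0.09 (SE 0.031, adjusted p = 0.061). Without Klf4 siRNA replicate 2, the adjusted p of Slc6a5 was 0.00061, and that of Slc6a17 was 0.0093 without Klf4 siRNA replicate 4 and 0.040 without scramble replicate 4. Slc6a6, the taurine carrier, Slc6a8 and Slc6a9, another glycine carrier, had log2 fold changes of -0.04, -0.05 and -0.10 (adjusted p = 0.432, 0.345 and 0.257). Over all 23 members that did not pass, estimates ran from -0.22 to 0.29, 11 positive and 12 negative, with a median SE of 0.054.

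The batches set the members apart more often than the treatment did. For batch 2 against batch 1, 14 members rose and 4 fell, or 56.2% of 32. Of all tested genes 32.7% passed (16.8% higher and 15.9% lower), and of those of at least 1 CPM 37.8% did (18.7% and 19.1%). Above 10 CPM, 13 of 25 members passed for batch, and the share of all genes at that level is not given here. With library size alone as scaling, 10 members rose and 5 fell between batches. With Klf4 siRNA replicate 4 placed in batch 2, 10 rose and 1 fell. In the main fit the median batch log2 difference was 0.088 over the 32 members, against 0.00065 for all tested genes. The median absolute difference was 0.119 for the members, 0.118 for all tested genes and 0.0967 for those of at least 1 CPM. The batches did not overlap in 14 members, against 29.4% of all tested genes and 32.8% of those of at least 1 CPM. The RNA of the 32 members summed to 5702 to 5947 CPM in batch 1 and 6089 to 6243 CPM in batch 2. As given above, Gcg and the summed markers of other tissues were also higher in batch 2, and their part in these differences was not tested.

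Slc7a8, a light chain for neutral amino acids, differed most. It was at 3.40 and 3.12 CPM in scramble replicates 1 and 2 and at 3.33, 3.29 and 3.37 CPM in Klf4 siRNA replicates 1, 2 and 4, all of batch 1. In batch 2 it was at 13.7 and 11.7 CPM in scramble replicates 3 and 4 and at 12.6 CPM in Klf4 siRNA replicate 3. The levels fell into separate ranges by batch whatever the treatment. The batch 2 level was 3.83 times that of batch 1 (log2 difference 1.94, SE 0.075, edgeR adjusted p = 4.84e-14), and the treatment log2 fold change was 0.00 (adjusted p = 0.985).

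Slc7a4, grouped with the cationic carriers by sequence, was at 1.24 and 1.06 CPM in batch 1 with scramble and at 0.75, 1.09 and 0.94 CPM there with the siRNA. In batch 2 it was at 3.37 and 3.70 CPM with scramble and 3.19 CPM with the siRNA, 3.21 times the batch 1 level in the fit (adjusted p = 1.50e-09). Its exons overlap P2rx6 on the opposite strand. Slc6a15, a carrier of branched-chain amino acids and proline, was at 12.4 to 15.4 CPM over the 5 libraries of batch 1 and at 26.6, 27.9 and 28.8 CPM in batch 2, or 1.90 times (adjusted p = 9.73e-11). Neither gene overlapped between batches.

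The 3 members with the largest falls were Slc38a3, Slc6a12 and Slc43a2. Slc38a3, the second system N carrier, was at 1.44 to 2.10 CPM in batch 1 and at 1.03, 1.08 and 1.17 CPM in batch 2, 0.586 times the batch 1 level (adjusted p = 0.00070). Slc6a12 was at 1.95 to 2.36 CPM in batch 1 and at 1.23, 1.28 and 1.40 CPM in batch 2, 0.591 times (adjusted p = 7.42e-05). Slc43a2, a facilitator of large neutral amino acids, was at 137 to 149 CPM in batch 1 and at 116, 125 and 126 CPM in batch 2, with a log2 difference of -0.23 (adjusted p = 5.63e-05). Exons of Slc43a2 overlap Gm45606 on the opposite strand.

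Among the abundant members Slc38a4 had the largest batch difference, 0.38 on the log2 scale (SE 0.060, edgeR adjusted p = 0.0013), while Slc7a5 (0.02, adjusted p = 0.628), Slc3a2 (0.00, adjusted p = 0.987) and Slc7a2 (-0.05, adjusted p = 0.237) did not pass. Klf4 siRNA replicate 4 shares its replicate number with a scramble library of batch 2. With that library placed in batch 2, 11 members passed for batch, and the adjusted p became 0.060 for Slc7a8, 0.133 for Slc6a15, 0.093 for Slc6a12 and 0.182 for Slc38a3. Its own CPM lay only in the range of the other batch 1 libraries for 10 of the 32 members, among them Slc7a8, Slc7a4, Slc6a12 and Slc38a3, which were chosen for their batch difference under the label. It lay only in the range of batch 2 for 6 members, among them Slc1a5 (241 CPM) and Slc38a5 (730 CPM). For 5 members it lay in both ranges and for 11 in neither.

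**Figure D4:**
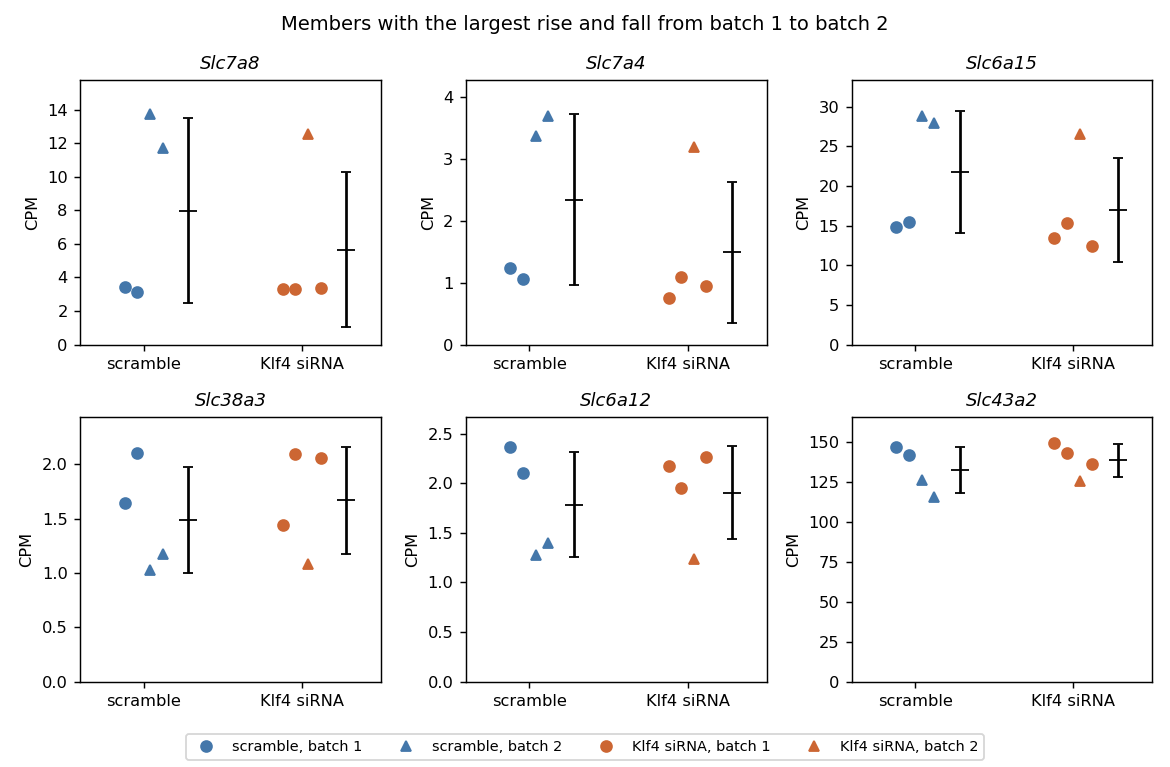
CPM in each library for the 3 members that rose most and the 3 that fell most from batch 1 to batch 2, with bars at the mean and SD of each treatment and axes from 0. Slc7a8 separates 5 libraries at 3.12 to 3.40 CPM from 3 libraries at 11.7 to 13.7 CPM.

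The treatment effect itself was compared between batches by an interaction term. No member passed, nor did any of the tested genes (smallest edgeR adjusted p = 0.712, with 540 genes, 3.31%, at an unadjusted p under 0.05). Of the members only Slc38a9 was at an unadjusted p under 0.05 in this test, with log2 changes of -0.03 within batch 1 and 0.30 within batch 2. All 9 called members had the same sign within both batches, and 25 of the 32 did. Batch 2 held 1 siRNA library, which limits what this test can show.

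Genes that sense and answer amino acid supply were read from 4 lists beside the carriers. Of 26 tested genes of the amino acid response, which ATF4 governs, 1 rose and 4 fell, with a median log2 fold change of -0.036. Phgdh, the first enzyme of serine synthesis, was at 176.2 ± 8.56 CPM with scramble and 148.7 ± 9.99 CPM with the siRNA (SD, n = 4 each). Its log2 fold change was -0.22 (edgeR adjusted p = 0.00044). Aldh18a1, of proline synthesis, had -0.15 (adjusted p = 0.00048) and Atf5, a related transcription factor, had -0.12 (0.0086). Eif2ak3, the kinase of the unfolded protein response, had 0.11 (0.029). The fifth, Gpt2, an alanine aminotransferase at -0.10 (0.032), is named after its value was seen. Atf4 itself had -0.06 (adjusted p = 0.780).

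Single libraries mattered for part of this list. Without Klf4 siRNA replicate 4, 11 genes passed, 1 higher and 10 lower. Without scramble replicate 1 or Klf4 siRNA replicate 3, 2 passed, and without scramble replicate 3 or Klf4 siRNA replicate 1, 3 passed, all lower. Phgdh and Aldh18a1 passed in each fit without 1 library. Atf5 did not pass without scramble replicate 1 or Klf4 siRNA replicate 3 (adjusted p = 0.072 and 0.087). Eif2ak3 was lost without scramble replicates 1, 2 or 3 (0.075, 0.144 and 0.060) or Klf4 siRNA replicates 1, 2 or 3 (0.073, 0.072 and 0.150). Gpt2 was lost without scramble replicates 1, 3 or 4 (0.178, 0.067 and 0.059) or Klf4 siRNA replicates 1 or 3 (0.076 and 0.312). With Klf4 siRNA replicate 4 placed in batch 2, 4 genes of the list passed, all lower, of which 2 were among the 5. Atf5, Eif2ak3 and Gpt2 then had adjusted p = 0.142, 0.589 and 0.051.

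In the list for amino acid sensing by mTORC1, the kinase complex that couples amino acid supply to growth, 2 of 32 tested genes rose and 1 fell, with a median of 0.0026. Rragd, a small GTPase that recruits mTORC1 to the lysosome, was at 110.0 ± 6.48 CPM with scramble and 132.4 ± 5.97 CPM with the siRNA (SD, n = 4 each), 0.24 higher on the log2 scale (edgeR adjusted p = 9.77e-06). Mios, of the GATOR2 complex, had 0.12 (edgeR adjusted p = 0.016) and Itfg2, of the KICSTOR complex, had -0.14 (adjusted p = 0.014). The list had 6 calls without scramble replicate 4 (3 higher, 3 lower), 5 without Klf4 siRNA replicate 4 (4 higher, 1 lower) and 1 without scramble replicate 1 or 2. Rragd passed without any 1 library. Mios was lost without scramble replicate 1 or 2 or Klf4 siRNA replicate 3 (0.065, 0.081 and 0.117), and Itfg2 without scramble replicate 1 or 2 (0.057 and 0.124). In batch 1 alone both were lost (0.134 and 0.058).

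Of 19 tested genes of glutamine, glutamate and arginine metabolism, 1 passed: Odc1, which makes putrescine from ornithine, at 0.13 (edgeR adjusted p = 0.0051), with a list median of -0.015. Its call was lost without scramble replicate 2 (0.064) or Klf4 siRNA replicate 3 (0.059), in batch 1 alone (0.058) and with Klf4 siRNA replicate 4 placed in batch 2 (0.233). Of 13 tested amino acid carriers of other families, 1 passed, with a list median of 0.013. This was Slc25a12, the mitochondrial aspartate and glutamate carrier, at 163.6 ± 9.22 CPM with scramble and 133.1 ± 8.48 CPM with the siRNA (SD, n = 4 each), without overlap. It had a log2 fold change of -0.26 (SE 0.027, edgeR adjusted p = 1.47e-06). It passed in each fit without 1 library. Without Klf4 siRNA replicate 4, both of these lists had 2 calls. The 4 lists passed in 5 of 26, 3 of 32, 1 of 19 and 1 of 13 genes. The share was 11.7% of all tested genes, 14.8% at a mean of at least 1 CPM and 18.4% at 10 CPM.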

How the data were processed

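The deposited values were raw whole-number counts per gene, not normalized by the authors. FastQC, STAR, featureCounts and DESeq2 and the build mm10 are named without roles in the submitters' processing notes. Trimming with cutadapt is known from the table's name, and strand use is not given in the sources used here. The design text names edgeR with batch correction.

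All 55536 identifiers matched GENCODE release M21 (GRCm38), and 0 columns were unmapped. Totals were 45954151 to 64185987 counts, and no 2 libraries were alike (chi-square per degree of freedom at least 10.2). PCR duplicates cannot be told apart, so precision came from the spread between libraries.

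Genes passing filterByExpr (16333) were fitted with batch and treatment in edgeR 4.0.16 (R 4.3.3), by the robust quasi-likelihood test with TMM scaling, 5 residual degrees of freedom, two-sided p and Benjamini-Hochberg adjustment at 0.05. The interaction had a fit of its own. The SE is the absolute log2 fold change over the square root of F. CPM uses TMM-scaled library sizes, and changes within a batch are differences of mean log2 CPM (prior count 2).

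Per-library values are given for called members, the 5 of highest RPKM and the 3 largest rises and falls by batch, and at most 4 called genes per pathway list are named. Slc6a5 and Gpt2 were added to these after their values were seen. The members and lists were chosen with earlier results of these data known. Alternatives were other batch settings, scalings, filters, DESeq2 1.42.0, limma 3.58.1 and each library left out. A comparison of protein sequences was not made. Some marker genes are not reported here.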

Additional observations from a re-analysis of the deposited data

Results flagged for a closer look

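In 3 of 38 groups of 4 libraries examined, 1 library stood apart by Dixon's test. Chance gives about 1.9 (1 in 20), but this rate does not hold for genes chosen by batch difference, as Slc7a8 and Slc7a4 were. All 3 flagged groups concern Klf4 siRNA replicate 3, the highest of its group and its only library of batch 2. Its gap to the nearest library was 0.905 of the group's range for Slc38a10 (129 against 107 to 109 CPM), 0.861 for Slc7a4 (3.19 against 0.75 to 1.09 CPM) and 0.991 for Slc7a8 (12.6 against 3.29 to 3.37 CPM). In each of these genes the scramble libraries of batch 2 were also above those of batch 1.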

How the results depend on the processing

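No result reversed. Of 747 fits of single genes for Klf4 siRNA, 635 kept their side of the threshold, 99 lost a call and 13 gained one. For batch these were 442, 22 and 11 of 475. Only genes called in the main fit can lose a call, so the 99 and 22 came from fewer fits than 747 and 475. Among all these fits the sign changed in 42 and 10, in none of which the value passed before or after. DESeq2 gave no adjusted p for 4 members, Slc7a4, Slc6a12, Slc38a3 and Slc3a1, and these fits are left out. Without a batch term, calls were 0 of the members, 1 of the amino acid response, 1 of mTORC1 sensing and 0 of glutamine, glutamate and arginine metabolism. In batch 1 alone they were 5, 3, 3 and 0 in that order, with Klf4 at -1.39 (edgeR adjusted p = 0.104). With no filter, mTORC1 sensing had 5 and carriers of other families had 2. With Klf4 siRNA replicate 4 placed in batch 2, 6 members passed for treatment (3 higher, 3 lower) and 11 for batch. Without 1 library at a time, Klf4 ran from -1.46 to -1.24, members from 1 to 10, batch calls from 13 to 21, the response from 2 to 11, mTORC1 sensing from 1 to 6, metabolism from 0 to 2, other carriers from 1 to 2, and the interaction stayed at 0 in the 7 fits possible. With the longest transcript as length, Slc38a5 was at 346 RPKM and the largest shift among members was 2.37 times, in Slc38a1. The replicate numbers were not taken to pair the samples: deviations of same-numbered libraries correlated at 0.49, 0.42, 0.72 and -0.34, and replicates 4 lie in different batches. Scramble replicates 1, 2 and 3 were each closest to their same-numbered siRNA library (chi-square per degree of freedom 10.4, 18.3 and 18.3). Scramble replicate 4 was closest to Klf4 siRNA replicate 3. Of the siRNA libraries only replicate 3 was closest to its same-numbered scramble library. Klf4 siRNA replicates 1 and 4 were closest to each other (10.2), and replicate 2 was closest to replicate 1 (13.2). Any hint of pairs here comes from the data and not from the design. With a replicate block in place of batch, 6 members passed (3 higher, 3 lower), of which 3, Slc7a2, Slc7a6 and Slc38a7, were among the 9, and the others were Slc6a5, Slc6a17 and Slc7a3. The adjusted p was 0.080 for Slc7a11, 0.073 for Slc38a5, 0.053 for Slc36a1, 0.137 for Slc38a1, 0.158 for Slc38a10 and 0.256 for Slc1a5. Of the pathway genes, Atf5 (0.056), Eif2ak3 (0.617), Gpt2 (0.095) and Odc1 (0.129) were lost, and the response list had 4 calls, all lower. The causes were not tested. Depth limits the 27 untested members, with at most 17 counts in any library.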
